A study of Mus musculus with 4 samples.

Results

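Efnb2 and Slamf1 dendritic cells (DCs) with high Ccr7 were picked from single-cell RNA sequencing of DCs that had migrated from ear skin to the draining lymph node. A barcode was taken when it held at least 500 genes, at most 10% mitochondrial UMIs (unique molecular identifiers, each standing for 1 captured transcript), at least 1 Ccr7 UMI and no UMI of Cd3e, Cd3d, Cd3g, Cd79a or Cd79b. It also had to hold at least 2 of the 6 genes Efnb2, Gpr65, Flrt3, Slamf1, Ramp3 and Cxcl10, with at least 4 UMIs of them together per 10000 gene UMIs. These criteria found 2613 of 15836 barcodes, called members here, of which 1657 came from the MC903 capture and 956 from the untreated capture. The 6390 barcodes that met the Ccr7 and lymphocyte criteria but not those on the 6 genes are called the others (2507 after MC903 and 3883 untreated), and members and others together are the eligible barcodes.

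All mice were Tnfsf4KI/+, carrying on 1 allele a reporter that makes blue fluorescent protein (BFP) from the gene of the costimulatory ligand OX40L, and no group without the allele was used. Ears were given MC903 (a vitamin D analogue known to raise TSLP in skin) on days 0, 2 and 4 or were left untreated, and the ear-draining nodes were collected on day 5. For each treatment, 5000 BFP+ cells and 7000 BFP- cells were sorted as B220-, CD11c intermediate and MHC class II high, marked with antibody hashtags 3 and 4 (MC903 BFP+ and BFP-) or 1 and 2 (untreated BFP+ and BFP-), and loaded together. Each population is 1 pool and each treatment is 1 capture, 1 library and 1 sequencing lane, so treatment, capture and lane cannot be told apart and no difference has a replicate check. The number, age and sex of the mice are not given in the sources used here.

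Ccr7 is the receptor that leads mature DCs along the chemokines CCL19 and CCL21 into and through the lymph node. The 6 genes used to pick the members belong to separate systems of cell contact and signalling. Efnb2 is the transmembrane ligand ephrin-B2 of Eph receptors, Flrt3 is an adhesion protein that binds latrophilins and UNC5 receptors, and Slamf1 is the self-binding receptor CD150. Gpr65 is a proton-sensing receptor, Ramp3 is an accessory protein that tunes the calcitonin receptor-like receptor towards adrenomedullin, and Cxcl10 is an interferon-inducible chemokine that attracts CXCR3-bearing lymphocytes.

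The MC903 capture held 57148072 UMIs in 6316 barcodes and the untreated capture 33525154 in 9520, with medians of 8562 and 2520 per barcode. Members had a median of 9402 UMIs after MC903, against 9863 in the others, and of 3214 in the untreated capture, against 2558 in the others. Untreated members were therefore deeper than the barcodes they are set against, and MC903 members were not. The captures had 23 barcode sequences in common, 4 of them carried by a member, and none was a member in both. Intervals are exact 95% intervals, apart from those of differences between log2 ratios, which are normal, and all cover counting error only, and levels are counts of a gene per 1000000 gene UMIs (CPM), both summed over the barcodes named.

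Members made up 39.8% of the 4164 eligible barcodes after MC903 (interval 38.3 to 41.3) and 19.8% of the 4839 untreated ones (18.6 to 20.9). The share was 2.01 times as large after MC903, a log2 ratio of 1.01 (0.89 to 1.13). Among barcodes of 5000 to 10000 UMIs it was 43.8% after MC903 (41.5 to 46.1) and 29.8% untreated (25.9 to 33.9), and among those of 10000 to 20000 it was 37.1% (34.8 to 39.4) and 24.3% (19.8 to 29.3). When every barcode was thinned to 2000 UMIs before the criteria were applied, the shares were 21.9% and 13.1%, a log2 ratio of 0.74. With at least 3 of the 6 genes required they were 29.3% and 7.07%, a log2 ratio of 2.05. The share was higher after MC903 under each of these settings, while its size moved with the depth and with the number of genes asked for.

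The 6 genes are described first, without a test, because they chose the members. Efnb2 (GRCm38 chromosome 8, 8617434 to 8661242) was at 219 CPM in members and 31.1 in the others after MC903, and at 231 and 50.2 in the untreated capture. Flrt3 (chromosome 2, 140650914 to 140671469) was at 335 against 32.9 CPM after MC903 and 280 against 41.4 untreated. Slamf1 (chromosome 1, 171767127 to 171801184) differed less than the other 5 after MC903, at 159.5 CPM in members against 40.1 in the others, and was at 154 against 37.4 untreated. Slamf1, 1 of the 2 genes in the name of these cells, thus had the smallest ratio of the 6 in both captures.

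Gpr65 (chromosome 12, 98268635 to 98276644) was at 138 against 12.4 CPM after MC903 and at 153 against 22.9 untreated. Ramp3 (chromosome 11, 6658521 to 6677475) was at 187 against 32.4 CPM after MC903 and at 97.4 against 13.5 untreated. Cxcl10 (chromosome 5, 92346638 to 92348889) was at 155 against 10.5 CPM after MC903 and at 98.1 against 21.6 untreated. Ramp3 and Cxcl10 were thus the 2 genes whose level in members was higher after MC903 by more than a log2 ratio of 0.5, at 0.94 (0.79 to 1.09) and 0.66 (0.52 to 0.81), whereas Efnb2, Gpr65, Flrt3 and Slamf1 lay between -0.15 and 0.26. In the others, Ramp3 was also higher after MC903 (1.26, 1.04 to 1.49), while Cxcl10 was lower (-1.04, -1.28 to -0.80).

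The Cxcl10 promoter is shown because Cxcl10 had the largest ratio of members over others among the 6 genes after MC903 and is the one known as an interferon target. RefSeq (GRCm38.p6) places the 250 bases before its start at chr5:92348890-92349139 on the minus strand. Capitals mark the core of the interferon response element (a pair of GAAA repeats with 2 bases between them) and matches to the NF-kB consensus, both searched on either strand, and the matches do not overlap.
Cxcl10 promoter: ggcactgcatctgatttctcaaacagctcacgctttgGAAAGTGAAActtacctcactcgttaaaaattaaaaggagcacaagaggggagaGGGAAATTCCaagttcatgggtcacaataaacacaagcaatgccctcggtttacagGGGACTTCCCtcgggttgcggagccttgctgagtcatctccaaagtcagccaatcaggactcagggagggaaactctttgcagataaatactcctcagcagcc
The interferon core starts 213 bases before the gene and the NF-kB matches 159 and 103 bases before it. Of 32851 mouse promoters of this length, 2.98% hold the interferon core and 3.9% the NF-kB consensus. Among the other 5 genes, Ramp3 holds an NF-kB match and none holds the interferon core. Of 10 genes with an entry among the 12 named further on as higher in members, 0 hold the interferon core and 2 hold the NF-kB consensus (Il6 and Got1).

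At equal depth, 43.2% of MC903 members held a Flrt3 UMI (40.8 to 45.6), 33.6% Efnb2, 26.0% Ramp3, 24.4% Slamf1, 23.4% Gpr65 and 17.2% Cxcl10, after each barcode was thinned to 2000 UMIs, which left 1647 members and 2475 others after MC903 and 870 and 3123 untreated. Without thinning the shares were 75.6, 69.7, 58.2, 55.7, 53.7 and 36.7%. Thinned untreated members held Efnb2 in 37.4% (34.1 to 40.7), Flrt3 in 36.7%, Gpr65 in 27.5%, Slamf1 in 26.9%, Cxcl10 in 16.1% and Ramp3 in 15.7%, and without thinning in 56.7, 56.6, 41.6, 43.9, 24.5 and 29.2%. In the others the thinned shares were between 2.26% (Gpr65) and 7.76% (Slamf1) after MC903 and between 2.69% (Cxcl10) and 8.97% (Efnb2) untreated. Barcodes with both Cd79a and Cd79b and no Fscn1, taken as B cells, held Efnb2 and Flrt3 in 0.625% each after MC903 and in 2.5% and 1.88% untreated (median depth of these barcodes 3181 UMIs after MC903 before thinning). For Gpr65 the shares of the others and of B cell barcodes had overlapping intervals, at 2.26% (1.71 to 2.93) and 3.44% (1.73 to 6.07) after MC903 and 4.19% (3.52 to 4.96) and 3.75% (1.39 to 7.98) untreated. They overlapped for Slamf1 too, at 7.76% (6.73 to 8.88) and 5.31% (3.12 to 8.37) after MC903 and 5.89% and 3.12% untreated. Clusters 11 and 12, led by B and T cell genes, had Gpr65 at 21.9 and 36.8 CPM.

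**Figure D1:**
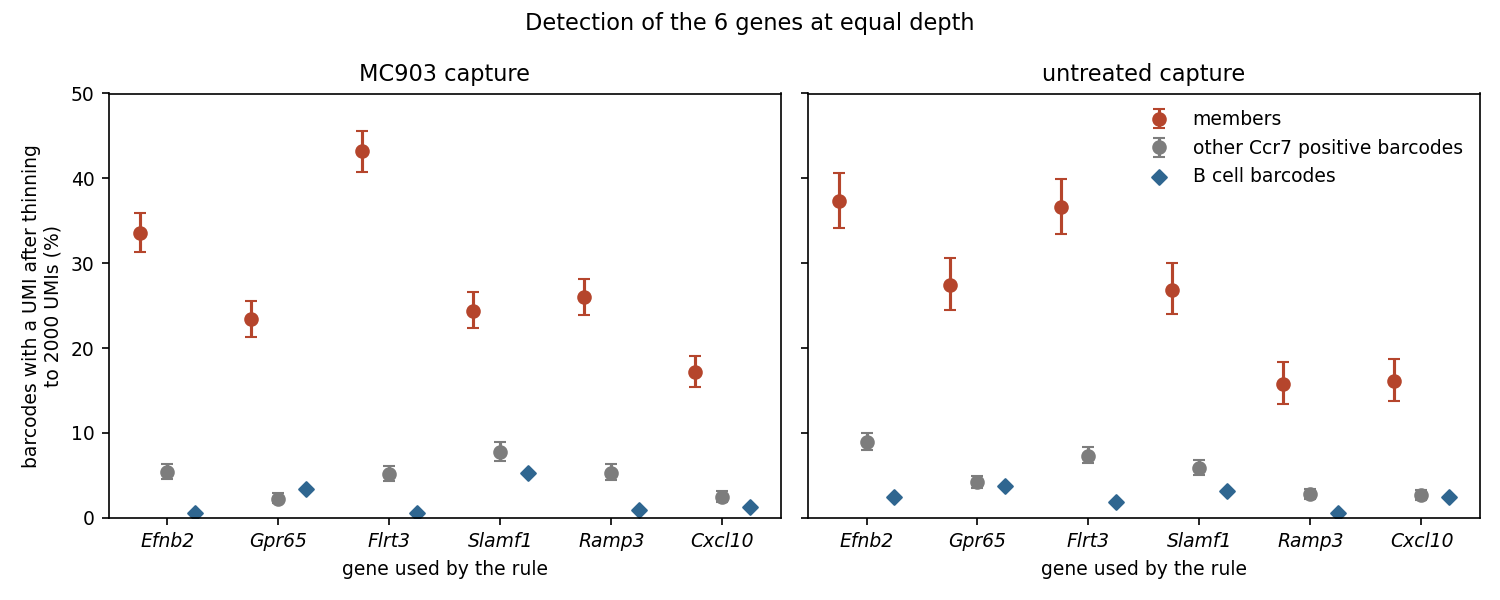
Share of barcodes with at least 1 UMI of each of the 6 genes after thinning to 2000 UMIs (vertical axis, percent), in the MC903 capture (left) and the untreated capture (right). Red circles are members and grey circles the other Ccr7 positive barcodes, with exact 95% intervals, and blue diamonds are B cell barcodes. Members lie between 15.7 and 43.2%, the others between 2.26 and 8.97%.

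Members differed in how many of the 6 genes they held. After MC903, 26.3% held 2, 27.9% held 3, 23.1% held 4, 15.1% held 5 and 7.54% held all 6, whereas in the untreated capture 64.2% held 2 and 0.837% held all 6. The pair Efnb2 and Flrt3 was held by 51.7% of MC903 members and 27.3% of untreated ones, the largest share of any pair in both. Efnb2 and Slamf1, which give the cells their name, were held together by 40.1% of MC903 members and 23.7% of untreated ones. These shares depend on depth, which was lower in the untreated capture.

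Just inside the threshold, 184 MC903 members with 4 to under 5 UMIs per 10000 had Efnb2 at 81.5 CPM and Cxcl10 at 27.2, and the 240 barcodes just outside (3 to under 4) had 63.9 and 21.9. In the untreated capture, 78 members just inside had 2 UMIs of the 6 genes at the median and Efnb2 at 115 CPM, and 63 barcodes just outside had 3 UMIs and 116 CPM. In that capture Gpr65 was at 97.6 CPM inside and 40.4 outside, and Ramp3 at 54.8 and 31.95.

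Each of the 6 genes was also left out in turn and read in the barcodes that the other 5 chose. The list of 6 came from earlier results of these data. A higher level of the gene left out is therefore a description and no independent support for the list. The gene left out was higher in the chosen barcodes in all 12 cases. After MC903 the log2 ratio was 2.39 (2.27 to 2.52) for Gpr65, 2.25 for Cxcl10, 2.01 for Efnb2, 1.95 for Flrt3, 1.496 for Ramp3 and 0.94 (0.84 to 1.03) for Slamf1. In the untreated capture it was 1.51 (1.37 to 1.65) for Flrt3, 1.205 for Gpr65, 1.17 for Ramp3, 0.98 for Efnb2, 0.83 for Slamf1 and 0.54 (0.30 to 0.77) for Cxcl10. Untreated Cxcl10 was at 52.4 CPM in the chosen barcodes against 36.1, and MC903 Cxcl10 at 135 against 28.4.

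Fscn1 and Ccr7, genes of mature migratory DCs, were read first. Ccr7 was required by the criteria, and the level of Fscn1 was no higher in members than in the others. Fscn1, the actin-bundling protein of mature DCs, had a UMI in 99.5% of MC903 members and 96.2% of untreated ones, at 2242 and 1908 CPM, against 2632 and 2037 CPM in the others. Ccr7, of which the criteria asked only 1 UMI, was at 4055 CPM in members and 1823 in the others after MC903, and at 3590 and 2244 in the untreated capture. Markers of DC subsets were read as sums over each list, and Xcr1 and Cd207 are given because they were low, chosen after their values were seen. The 12 cDC1 markers summed to 870 CPM in MC903 members against 777 in the others, and to 724 against 751 untreated, led by Irf8 after MC903 and Batf3 untreated, while Xcr1 was at 0.472 CPM in MC903 members and 1.14 in untreated members. Read by marker, 3 of the 6 cDC1 genes measured untreated (as defined below) were lower in members and 0 higher, beside 0.798% and 1.6% of all genes. Their median log2 ratio was -0.56, beside 0.01 over all genes. After MC903, 0 of 4 measured were higher and 0 lower, with a median of -0.15 beside 0.04. The 10 cDC2 markers in the files, led by Ccl17, summed to 519 CPM against 942 after MC903 and 509 against 576 untreated. The 10 Langerhans cell markers, led by Mfge8, summed to 123 against 159 CPM and to 279.7 against 380.3, with Cd207 at 1.53 CPM in MC903 members and 6.14 in untreated members. The endothelial genes Tie1, Ptprb, Lyve1 and Emcn were at 0 in members of both captures, and the summed level of the 14 endothelial markers was 34.0 CPM in MC903 members against 41.7 in the others, and 25.9 against 32.7 untreated, led by Esam at 29.9 CPM in MC903 members and 12.5 in untreated members. B cell markers summed to 30.9 CPM in MC903 members (others 43.9) and 274 in untreated members (others 416), led in the untreated capture by Igkc at 183 CPM.

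Genes that the criteria did not use were then compared. Of the 12 named below as higher in both captures, the cytokine genes Osm and Il6 led by the smaller of their 2 capture ratios. Between members and others, 65 of 4435 genes measured in both captures were more than 1.5 times as high in members in both captures (1.47%), and 12 were lower to that degree (0.271%). With means over barcodes in place of sums these counts were 21 and 5. Genes counted as measured held at least 20 CPM and 20 UMIs in the higher set, with no barcode giving over 20% of those UMIs. Since the 6 genes chose these same barcodes, the differences describe the chosen cells and none was tested. The MC903 capture alone set 301 of 4615 genes higher (6.52%) and 117 lower (2.54%), and the untreated capture 76 of 4761 higher (1.6%) and 38 lower (0.798%). Of the genes measured in both, the 65 shared ones were 23.5% of those higher after MC903 and 91.5% of those higher in the untreated capture, and the 12 lower ones were 12.8% and 54.5%.

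Osm, which encodes oncostatin M, was at 68.2 CPM in MC903 members against 17.7 in the others, a log2 ratio of 1.94 (1.79 to 2.10), and at 46.4 against 16.4 untreated, a ratio of 1.504 (1.23 to 1.78). Il6 was at 21.2 against 8.004 CPM (1.41, 1.16 to 1.66) after MC903 and at 21.4 against 8.53 (1.33, 0.92 to 1.73) untreated. Il6 had nearly the same level in members of both captures, just above the 20 CPM asked of a measured gene. In untreated members it rested on 94 UMIs.

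Got1, the cytosolic aspartate aminotransferase, was at 230.0 against 49.1 CPM after MC903 (2.23, 2.14 to 2.32) and at 160.0 against 77.2 untreated (1.05, 0.91 to 1.19). Slc25a33, a mitochondrial carrier of pyrimidine nucleotides, was at 56.9 against 9.60 CPM (2.57, 2.36 to 2.77) and at 43.7 against 21.4 (1.03, 0.76 to 1.29). Galc, a lysosomal galactosylceramidase, was at 27.9 against 5.68 CPM (2.30) and at 24.6 against 10.5 (1.22), and Gcnt2, a glycosyltransferase, at 134 against 39.4 (1.76) and 64.2 against 32.4 (0.98). Galc (chromosome 12, 98202294 to 98259459) lies just before Gpr65, which chose the members.

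Nfil3, needed for the cDC1 lineage, was at 232 against 66.8 CPM after MC903 (1.80, 1.72 to 1.88) and at 152 against 69.3 untreated (1.14, 0.99 to 1.28). Runx3, needed for Langerhans cells, was at 219 against 73.3 CPM (1.58) and at 126 against 64.5 (0.96). Ets2 was at 95.2 against 19.8 CPM (2.27) and at 92.8 against 47.4 (0.97), and Spic, an Ets factor of red pulp macrophages, at 48.4 against 18.4 (1.39) and 47.1 against 24.0 (0.97). The membrane receptor Gprc5a (1.80 and 1.08) and the ubiquitin ligase Rnf157 (1.80 and 1.17) complete the 12 named as higher in both captures.

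Genes lower in members were fewer and included inducible heat shock proteins. Hspa1a was at 202 CPM against 539.7 in the others after MC903 (-1.42, -1.47 to -1.36) and at 371 against 678 untreated (-0.87, -0.95 to -0.79), and Hspa1b, a near-identical copy whose reads cannot be safely parted from it, at -1.38 and -0.89. The cytokine Tnf was at 14.1 against 25.4 CPM (-0.85, -1.07 to -0.63) and at 20.9 against 46.4 (-1.15, -1.48 to -0.83), and Ltb, lymphotoxin beta, at 13.9 against 26.5 (-0.93) and 34.8 against 55.4 (-0.67). Tubb2b, a beta tubulin, was at 140.1 against 281 CPM (-1.01) and 80.6 against 126 (-0.64). Napsa, Glrx, Dnase1l3, Ccl9, F11r, Pygl and Fgd2 were also lower in both captures, with log2 ratios between -1.09 and -0.60, but untreated Pygl was at 0.34 after thinning.

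**Figure D2:**
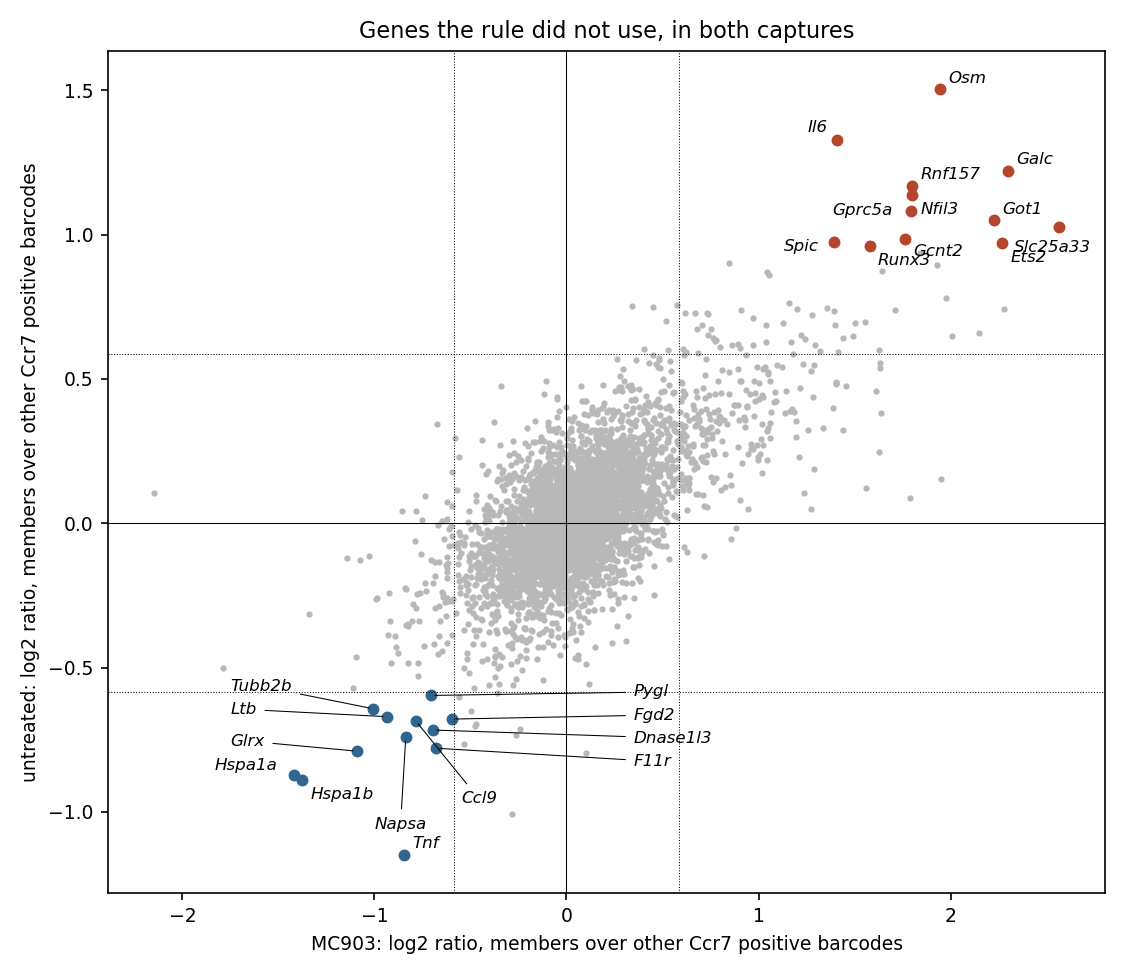
Log2 ratio of members over the other Ccr7 positive barcodes for the 4435 genes measured in both captures, without the 6 genes and Ccr7 (horizontal axis MC903, vertical axis untreated). Red points are the 12 genes named as higher and blue points the 12 named as lower, and dotted lines mark a 1.5-fold ratio. All 12 higher genes lie further from 0 after MC903, from Spic at 1.39 to Slc25a33 at 2.57, than in the untreated capture, where Osm is highest at 1.504.

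Members were also read in 3 bands of the summed level of the 6 genes, the same sum that chose them, as a description only. After MC903, Got1 was at 117 CPM in the 509 members with 4 to under 7 UMIs per 10000, at 212 in the 497 with 7 to under 12, and at 349 in the 651 with 12 or more, whose median depth was the lowest of the 3 (8862 UMIs). In the untreated capture it was at 119, 147 and 243 CPM. Hspa1a ran the other way, at 298, 172 and 140.5 CPM after MC903 and at 450, 364 and 255 untreated. Ccr7 was at 2984, 3963 and 5114 CPM after MC903 and at 3117, 3537 and 4412 untreated, while Fscn1 was lower in the highest band after MC903 (2557, 2308 and 1898).

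**Figure D3:**
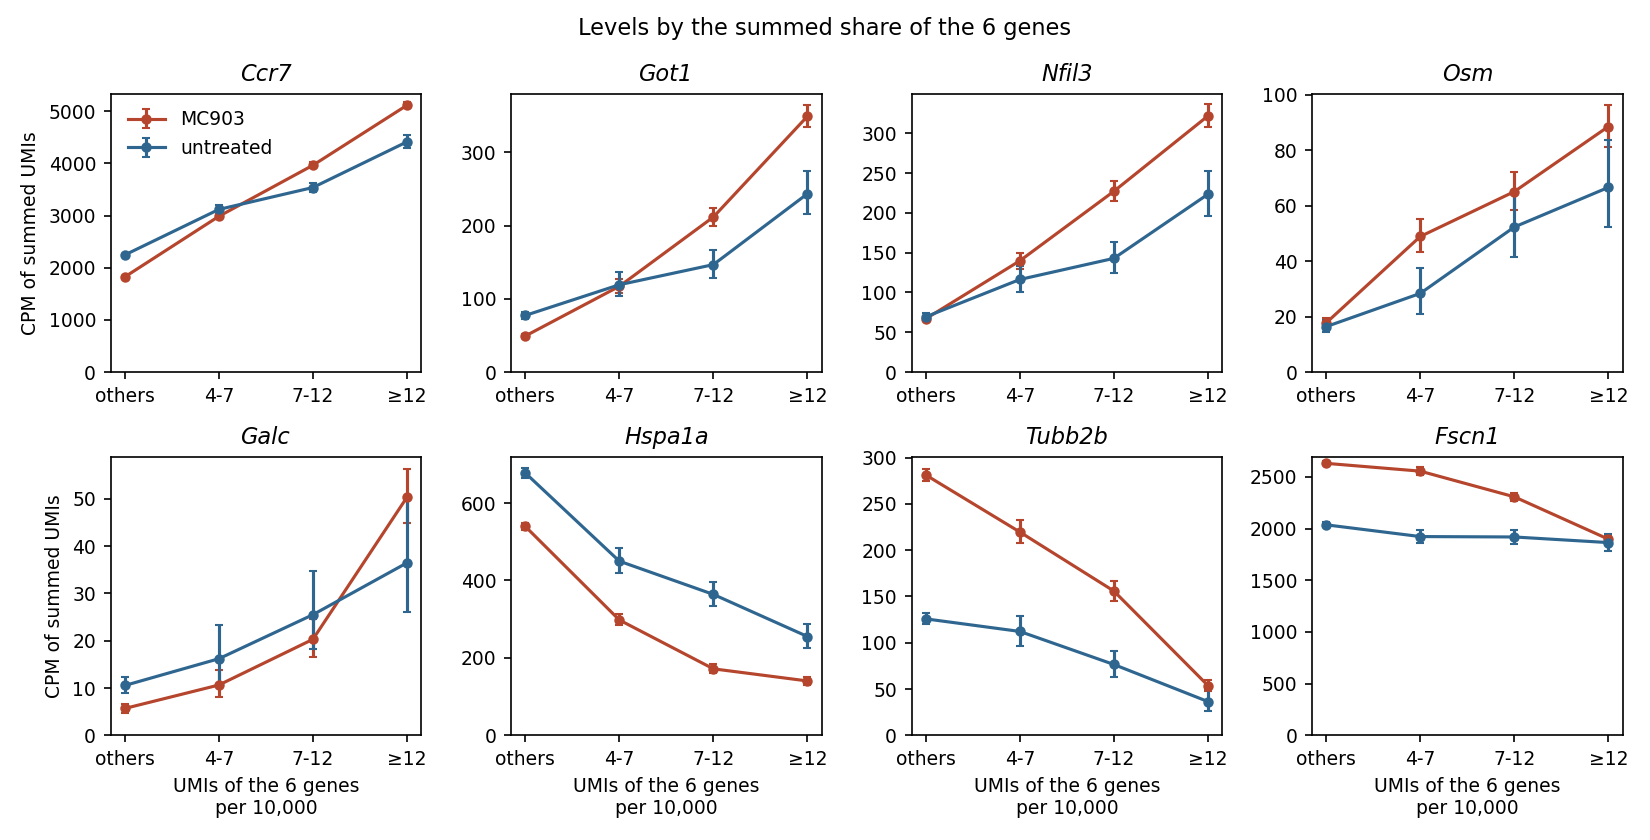
Level of 8 genes (CPM of summed UMIs, vertical axis) in the other Ccr7 positive barcodes and in members with 4 to under 7, 7 to under 12 and 12 or more UMIs of the 6 genes per 10000 (horizontal axis), with exact 95% intervals, red for MC903 and blue for untreated. Ccr7, Got1, Nfil3, Osm and Galc increase along the axis in both captures, and Hspa1a and Tubb2b decrease.

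Lists of genes by function gave a mixed picture of maturation. For each list count below, the shares over all genes were 6.52% higher and 2.54% lower after MC903. Untreated, they were 1.6% higher and 0.798% lower. Of 23 DC transcription factors measured in each capture, 8 were higher in members and 1 was lower after MC903, and 4 were higher and 0 lower untreated, with list medians of 0.35 and 0.16 beside 0.04 and 0.01 over all genes. Rel, an NF-kB subunit, was at 1006 CPM against 384 after MC903 (1.39, 1.35 to 1.43) and at 854 against 513 untreated (0.73, 0.68 to 0.79). Stat4 was at 299 against 180.2 CPM (0.73) and at 110.4 against 66.6 (0.73). Id2, Klf4, Ahr, Myb, Nfil3 and Runx3 completed the higher ones after MC903, whereas Relb (-0.05 and -0.12) and Nfkb1 (-0.11 and 0.00) lay near 0.

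Of 30 maturation genes measured after MC903, 5 were higher and 2 lower in members, and of 29 measured untreated, 2 were higher and 0 lower. The list median was -0.06 after MC903 and 0.01 untreated, so the list as a whole did not stand above all genes. Cd80, a ligand of CD28, was at 324 against 180 CPM after MC903 (0.85, 0.79 to 0.90) and at 128 against 68.8 untreated (0.90, 0.75 to 1.05). Il12b was at 159 against 59.9 CPM (1.41) and at 114 against 75.3 (0.59, 0.44 to 0.75). Cd83, Tnfaip3 and Il15ra were the other higher ones after MC903, and Ccl17 (-1.07) and Il4i1 (-0.76) the lower ones. Cd274, the ligand PD-L1, did not reach 1.5-fold in either capture, at 0.38 (0.33 to 0.42) and 0.47 (0.36 to 0.57).

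Of 18 immediate early genes measured, 9 were higher and 4 lower in members after MC903, and 2 were higher and 2 lower untreated, beside 6.52% and 2.54% of all genes after MC903 and 1.6% and 0.798% untreated. The list medians were 0.59 and 0.12, beside 0.04 and 0.01 over all genes. Nr4a2 was at 276 against 68.7 CPM after MC903 (2.01) and at 207 against 132 untreated (0.65), and Nr4a3 at 429 against 139 (1.63) and 441 against 291 (0.60). Atf3 was at 169.5 against 57.6 CPM after MC903 (1.56) and at 167 against 153 untreated (0.12). Jun ran the other way at -1.11 and -0.57, with Egr1 at -0.77 and -0.48.

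Of 10 MHC class II genes measured, 0 were higher in members, and 3 were lower after MC903 and 0 untreated, with list medians of -0.34 and -0.08 and summed levels of 22987 CPM in members against 27467 in the others after MC903 and 21015 against 21984 untreated. H2-DMa, which loads peptides, was at -0.66 and -0.13. Among costimulatory ligands of the TNF family and their like, 3 of 5 measured were lower after MC903 and 2 of 4 untreated. Over all genes, 2.54% were lower after MC903 and 0.798% untreated. Icosl, the ligand of ICOS, was at 58.8 against 126 CPM after MC903 (-1.10, -1.199 to -0.99) and at 131 against 181 untreated (-0.46, -0.60 to -0.33).

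Among cytokines and chemokines, 3 of 7 measured were higher (Il1b, Il1rn and Il6) and 1 lower after MC903, and 1 of 9 was higher and 2 were lower untreated. Il1b was at 713 against 229 CPM after MC903 (1.64, 1.59 to 1.68) and at 811 against 622 untreated (0.38, 0.33 to 0.44). Of 28 interferon-stimulated genes in the files, 10 were measured after MC903 and 8 untreated, with list medians of -0.02 and -0.04. Isg15 was at -0.24 and -0.46, and Gbp2 at -0.02 and 0.00. Of the 14 genes of TSLP and STAT5 signalling, 3 of 14 measured were higher after MC903 (Osm, Pim1 at 0.84 and Bcl6 at 1.44) and 1 of 13 untreated (Osm). Cish, a STAT5 target, was at 28.0 CPM in MC903 members against 41.3 in the others (-0.56).

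Partners and relatives of the 6 genes were mostly scarce. Of 16 other ephrin and Eph genes, only Efna2 and Efna5 reached 20 CPM in members after MC903, and Efna5 was higher there, at 27.1 against 14.6 CPM (0.90, 0.70 to 1.10), and at 17.5 against 8.46 untreated (1.05), while each of the Eph receptor genes listed was under 1 CPM in members. Of 10 relatives and partners of Flrt3, none reached 20 CPM. Calcrl, the receptor that Ramp3 assists, was at 27.7 against 20.3 CPM after MC903 (0.45, 0.27 to 0.63) and at 38.0 against 22.6 untreated (0.75, 0.47 to 1.02), and its ligand gene Adm was at 32.2 against 48.4 CPM (-0.59) and at 66.4 against 69.95 (-0.07). Slamf7 (-0.03 and 0.08) and Cd48 (-0.45 and -0.17) of the SLAM family did not follow Slamf1. Gpr132, a relative of Gpr65, was at 327 against 201 CPM (0.70) and 309.7 against 264 (0.23). Cxcl9, which like Cxcl10 is a ligand of CXCR3, was at 16.3 against 6.10 CPM after MC903, under the 20 CPM asked of a measured gene, and at 20.7 against 17.1 untreated (0.28, -0.08 to 0.63).

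Within the members, those with a UMI of one of the 6 genes differed from those without. Members without a gene must hold at least 2 of the other 5, so the comparison is bound by the criteria, and the genes given here were chosen after their values were seen. Carriers of Slamf1 had Ccl22, a chemokine for CCR4, at 3505 CPM against 1548 in members without Slamf1 after MC903 (1.18) and at 2231 against 1002 untreated (1.16), and Fabp4 at 16.9 against 57.6 (-1.77) and 11.6 against 43.2 (-1.89). Carriers of Gpr65 had Galc at 41.9 against 9.97 CPM (2.07) and 39.4 against 12.4 (1.67). Carriers of Flrt3 had Osm at 79.0 against 29.9 CPM (1.40) and 57.0 against 28.9 (0.98), and Hspa1a at 147 against 394 (-1.42) and 282 against 516 (-0.87). Carriers of Slamf1 also had a deeper median (9720 UMIs against 9082 after MC903, and 3677 against 2934 untreated). So had carriers of Flrt3 (9635.5 against 8942, and 3425 against 3017). For Gpr65 the medians were 9693.5 against 9071 after MC903, and 3203 against 3214 untreated.

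A clustering of all filtered barcodes that left out the 6 genes, Ccr7, Tnfsf4 and BFP gave 20 clusters, in which the members were unevenly placed. Cluster 4 had Galc, Efnb2, Cxcl10, Gpr65, Flrt3, Gla, Got1 and Slc25a33 as its leading genes, which include 4 of the 6 genes. The list of 6 came from earlier results of these data, so their place among the leading genes is no independent check. Cluster 4 held 707 eligible MC903 barcodes, of which 648 were members (91.7%, 89.4 to 93.6), and 139 eligible untreated ones, of which 93 were members (66.9%, 58.4 to 74.6). After MC903 this cluster took in 39.1% of members and 2.35% of the others, but in the untreated capture 9.73% of members and 1.18% of the others.

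Elsewhere the members were spread. The next highest share of members among MC903 clusters with at least 100 eligible barcodes was 49.1% (cluster 10, led by Cxcl1 and Tnf) and the lowest 17.7% (cluster 2, led by Fabp4). Of the untreated members, 46.5% lay in cluster 0, led by Fxyd2, which held nearly the same share of the others (43.8%). Untreated members were found in 17 of the 20 clusters and MC903 members in 15. The 3 clusters with most members held 63.4% of them in each capture. Untreated members included 21 in cluster 8, led by T cell genes such as Cd28 and Ctla4, and 27 in cluster 13, led by Il17a and Gzma. A further 22 lay in cluster 14, whose leading genes include Pf4 and C1qa, and 24 in cluster 18, led by Ngp and Ltf. Some untreated members thus lay in clusters led by genes of other cell types.

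**Figure D4:**
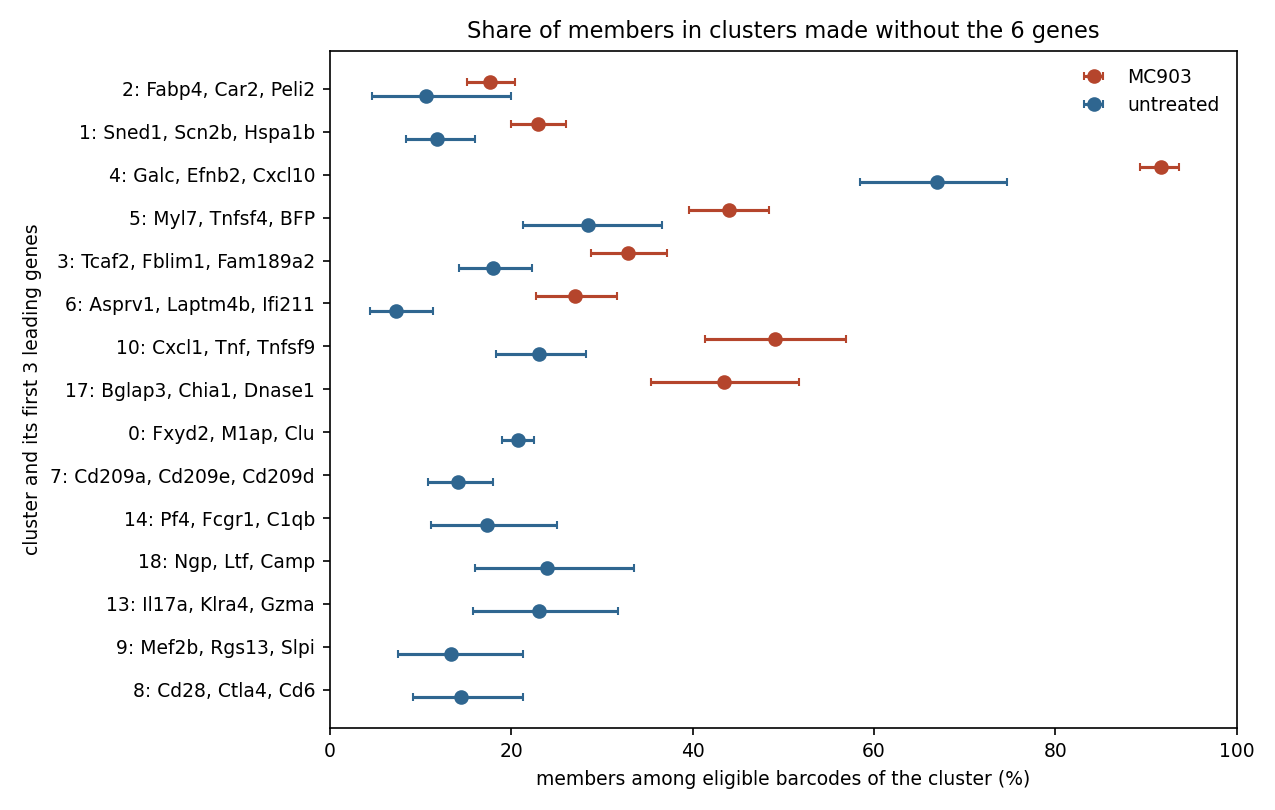
Members as a percent of the eligible barcodes of each cluster with exact 95% intervals (horizontal axis), by cluster with its first 3 leading genes (vertical axis), red for MC903 and blue for untreated. A point is drawn where a capture has at least 50 eligible barcodes. Cluster 4 stands apart with 91.7% after MC903 and 66.9% untreated.

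Members in cluster 4 held more of the 6 genes than members elsewhere. After MC903, Efnb2 was at 367 CPM against 133, Gpr65 at 226 against 86.8, Cxcl10 at 249 against 101 and Slamf1 at 217 against 126. In the untreated capture Efnb2 was at 325 against 209.6 CPM, Flrt3 at 472 against 236 and Slamf1 at 165 against 152. Ccr7 was at 5411 CPM in cluster 4 members and 3269 in members elsewhere after MC903, and at 5240 and 3219 untreated. The 59 others in cluster 4 after MC903 had Ccr7 at 5188 CPM as well, close to the level of the members there.

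Differences between members and others were then read inside clusters that held at least 100 of each, which were clusters 1, 2, 3, 5 and 6 after MC903 and cluster 0 untreated. Got1, Gcnt2, Nfil3, Runx3, Rel, Nr4a2 and Ccr7 were higher in members in all 6, each with an interval above 0. Got1 had log2 ratios between 0.99 and 2.29 after MC903 and 0.73 in the untreated cluster, and Nfil3 between 0.82 and 1.91 and 0.73. Osm was higher in all 5 MC903 clusters (0.37 to 1.94, with 4 intervals above 0) and in the untreated one (1.13). Gprc5a was higher in the 5 MC903 clusters (0.93 to 2.45) but at -0.07 in the untreated one. Galc was higher in 3 of 5 MC903 clusters (-0.19 to 2.17) and Il6 in 4 of 5, with -1.504 (-4.65 to 0.55) in cluster 1. Among the lower genes, Glrx was lower in all 6 (4 intervals below 0), and Hspa1a in 4 of 5 MC903 clusters and in the untreated one (-0.44). Some of the lower genes were higher in members of an MC903 cluster with an interval above 0, with Napsa at 0.61 (0.39 to 0.83) and Tubb2b at 0.21 (0.06 to 0.36) in cluster 6 and F11r at 0.54 (0.26 to 0.81) in cluster 2.

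Cish, Ifitm1 and Pla1a were among the genes higher in members after MC903, and Cxcl1 and Fxyd2 among the lower ones. Members of the MC903 capture had 169 of 4784 genes more than 1.5 times as high as untreated members (3.53%) and 181 lower to that degree (3.78%), and the others had 253 (5.34%) and 334 (7.04%) of 4741. With TMM scaling the members' split was 289 higher and 121 lower, and after thinning 457 and 349. Of 14 measured genes of TSLP and STAT5 signalling, 2 were higher in MC903 members and 0 lower (list median 0.15, all genes -0.00). Cish was at 28.0 CPM in MC903 members against 5.23 in untreated members, a log2 ratio of 2.42 (1.82 to 3.09), and the ratio was 3.01 in the others. Ifitm1, an interferon-induced membrane protein, was at 43.0 against 5.01 CPM (3.101, 2.49 to 3.78), Mylk, myosin light chain kinase, at 35.4 against 6.83 (2.37), Pla1a, a phospholipase, at 53.8 against 12.3 (2.13), Hopx at 71.2 against 20.3 (1.81) and Pkib, an inhibitor of protein kinase A, at 177 against 53.7 (1.72). All 6 were higher after MC903 in the others too.

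Salivary gland transcripts were the largest of the higher ones. Bpifa2 was at 199 CPM in MC903 members, with a UMI in 463 of them and 9.67% of the UMIs in 1 barcode, against 5.23 CPM in untreated members. Amy1 (43.7 against 0.683 CPM), Smr3a (125 against 2.28) and Chia1 (23.1 against 0.910) went with it. In the MC903 others 1 barcode held 90.0% of the Bpifa2 UMIs. The part of this barcode's RNA in the members' values was not tested.

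The genes lower after MC903 included Cxcl1, a chemokine for neutrophils, at 66.1 CPM in MC903 members against 299 in untreated members (-2.18, -2.29 to -2.06), and Fxyd2, a regulator of the sodium pump, at 44.5 against 209 (-2.23, -2.37 to -2.09). Cd209d, a lectin, was at 2.30 against 37.1 CPM (-4.01), Adgre4 at 1.36 against 24.3 (-4.17), Ly6d at 1.59 against 22.5 (-3.82), Plac8 at 10.6 against 76.5 (-2.85) and Cd8a at 7.85 against 38.0 (-2.28). Emb, Ms4a6c and Scube3 lay between -2.28 and -2.18. Markers of other cells moved the same way. The summed level of 13 monocyte and macrophage markers was 227 CPM in MC903 members and 569.6 in untreated members, that of 11 B cell markers 30.9 and 274, and that of 6 neutrophil markers 8.497 and 169.8. In the others these sums were also lower after MC903, at 218 and 604, 43.9 and 416, and 0.572 and 162 CPM. Of the neutrophil marker S100a9, 1 barcode gave 71 of 76 UMIs in MC903 members and 331 of 469 in untreated members. The part of other cells in these differences was not tested.

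Some genes were lower after MC903 in the others but not, or less so, in members. Vps37b, of the ESCRT-I complex, had a log2 ratio of MC903 over untreated of 0.49 (0.31 to 0.68) in members and -1.31 in the others, a difference of 1.80 (1.56 to 2.03). Atf3 was at 170 CPM in MC903 members and 167 in untreated members (0.03, -0.09 to 0.14), against -1.41 in the others. Ccrl2, a chemerin-binding receptor, was at 0.02 against -1.52, Slc25a33 at 0.38 against -1.16, and Neurl3 at -0.50 against -2.20. In the other direction, Plac8 (-2.85 against -0.59), Cd209d (-4.01 against -1.89), Cd8a (-2.28 against -0.99), Ccnd2, a cyclin, (1.40 against 2.42) and Hcls1 (-0.11 against 0.91) were relatively lower in members. Each of these differences had an interval that left out 0, and none has a replicate.

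**Figure D5:**
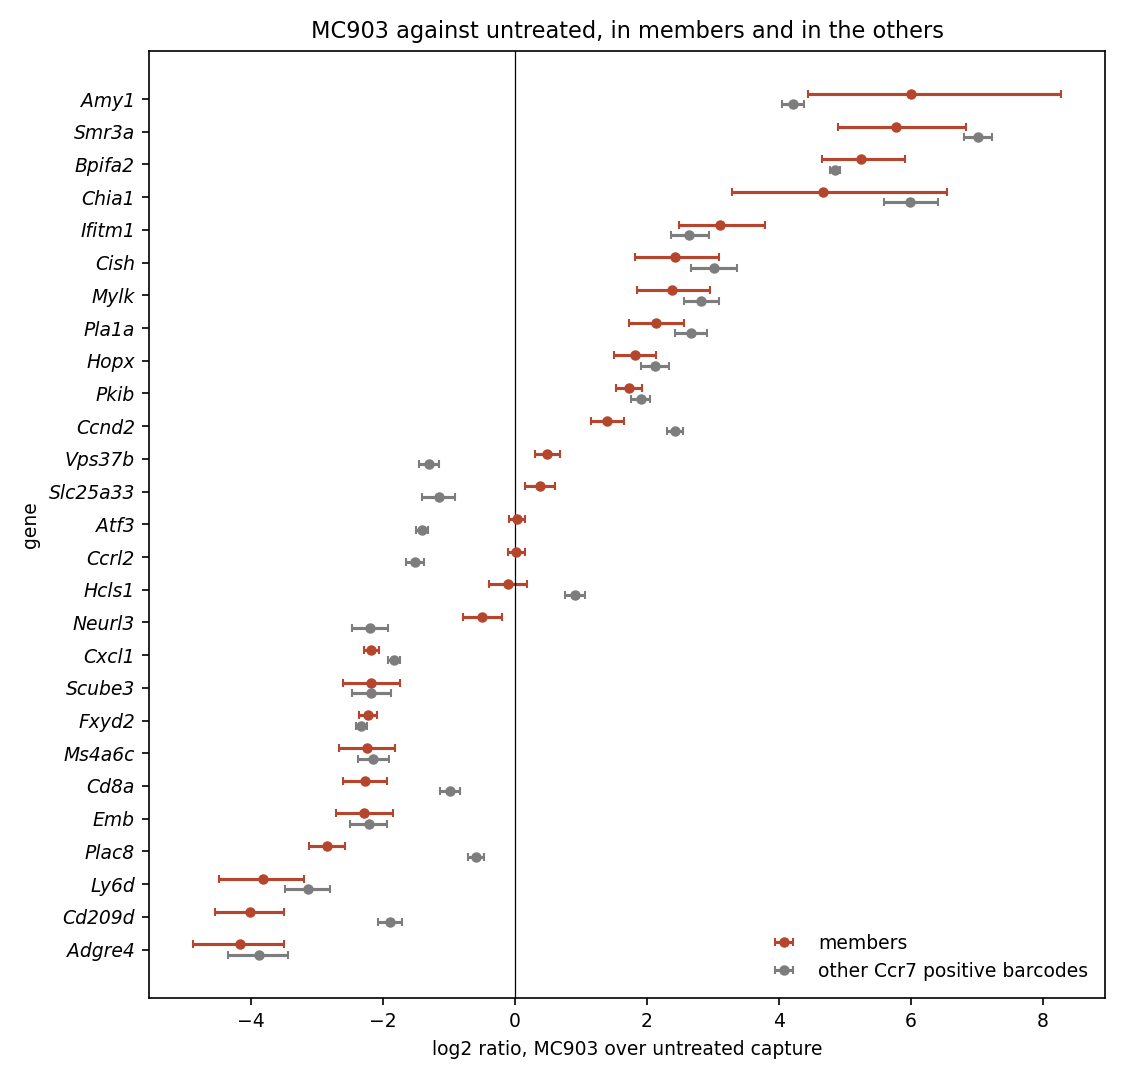
Log2 ratio of the MC903 over the untreated capture with exact 95% intervals (horizontal axis) for the genes named as most changed in members and as most different between members and others (vertical axis). Red points are members and grey points the other Ccr7 positive barcodes. Vps37b, Slc25a33, Atf3, Ccrl2 and Neurl3 lie further to the right in members, and Plac8, Cd209d and Cd8a further to the left.

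The reporter populations rest on hashtag oligos, which are shown because the 2 ways of reading them disagree in the untreated capture.
Hashtag 3, MC903 BFP+: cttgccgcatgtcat
Hashtag 4, MC903 BFP-: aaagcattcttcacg
Hashtag 1, untreated BFP+: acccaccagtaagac
Hashtag 2, untreated BFP-: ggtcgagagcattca
HTODemux, which sets a cutoff for each tag, called 553 MC903 members BFP+ and 907 BFP-, so that 37.9% of 1460 labelled members were BFP+ (35.4 to 40.4), against 40.2% of the labelled others. In the untreated capture it called 390 BFP+ and 156 BFP- (71.4%, 67.4 to 75.2; 69.6% of the others) and left 400 of 956 members without a label. When a barcode was given the hashtag that held at least 80% of its tag counts, the BFP+ share after MC903 was 32.9% of members (30.6 to 35.2) and 30.004% of the others (28.2 to 31.9), the opposite order to HTODemux. Untreated, it was 16.7% of members (14.0 to 19.7) and 8.92% of the others (7.91 to 10.0003). The BFP+ share of members and, after MC903, its order against the others therefore depend on the assignment, and the values for BFP+ and BFP- members given next hold for HTODemux labels.

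By HTODemux, members made up 41.8% of eligible BFP+ barcodes (39.1 to 44.5) and 44.1% of BFP- ones (41.97 to 46.3) after MC903, and 27.2% (24.9 to 29.6) and 25.5% (22.1 to 29.2) in the untreated capture. By the dominant hashtag they were 41.9% (39.2 to 44.7) and 38.7% (36.9 to 40.5) after MC903, the opposite order, and 30.7% (26.1 to 35.6) and 17.7% (16.5 to 19.1) untreated, so that the comparison of BFP+ with BFP- depends on the assignment in both captures. Tnfsf4 was at 22.9 CPM in BFP+ members against 3.56 in BFP- members after MC903, and at 19.8 against 2.33 untreated, where the BFP- value rests on 3 UMIs. BFP+ members after MC903 had less Tnfsf4 than BFP+ others (22.9, interval 19.2 to 27.1, against 38.0, 33.9 to 42.4), and less of the BFP transcript (83.2 against 121 CPM). In the untreated capture the intervals overlapped, at 19.8 (13.8 to 27.5) against 22.8 (18.3 to 28.0).

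Between BFP+ and BFP- members, 46 of 4623 genes were more than 1.5 times as high (0.995%) and 51 lower to that degree (1.1%) after MC903, and 284 of 4929 higher (5.76%) and 381 lower (7.73%) untreated, where BFP+ members were shallower (median 3298 UMIs against 7650). With every barcode thinned to 2000 UMIs, genes apart either way numbered 587 after MC903 and 522 untreated, against 97 and 665 without thinning. Genes of MHC class II loading led the higher ones. Ciita, the master regulator of MHC class II, was at 119 CPM in BFP+ members against 48.5 in BFP- members after MC903 (1.29, 1.12 to 1.47) and at 102 against 14.7 untreated (2.79, 2.10 to 3.55). H2-Oa (1.26 and 2.00), H2-DMb2 (1.198 and 2.32), H2-DMa (1.16 and 1.92) and Cd70, the ligand of CD27, (1.14 and 1.73) followed. Apol7c, an apolipoprotein L of DCs, was lower at 373 against 1122 CPM (-1.59) and 1163 against 2470 (-1.09), with Ehf, Laptm4b, Xlr and Plekhn1 also lower in both captures. Of the 6 genes, Gpr65 (0.37 and 0.89) and Cxcl10 (0.43 and 0.76) were higher and Slamf1 (-0.19 and -0.34) lower in BFP+ members of both captures, below 1.5-fold after MC903.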

How the data were processed

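Gene and hashtag UMI counts were deposited by the authors as 1 matrix per capture, whose headers name Cell Ranger 3.1.0; GRCm38 is the build per the submitters' processing notes. From these counts, barcodes were filtered and chosen by the criteria given in the report. UMIs were summed over barcodes, scaled to CPM and compared as log2 ratios with exact conditional binomial intervals. The calculation was first run on simulated Poisson counts, the model that the intervals assume, so that run could not cover spread between barcodes. Shares have Clopper-Pearson intervals. No test was run, since each population was 1 pool. To be counted as apart, a gene needed at least 20 CPM and 20 UMIs in the higher set, at most 20% of them in 1 barcode, and a 1.5-fold ratio. Depth was equalised by thinning to 2000 UMIs. Hashtags were assigned with HTODemux (Seurat 5.3.0, R 4.3.3, quantile 0.99), and its doublets stayed in the main sets, with an alternative that leaves them out. Clusters came from scanpy 1.11.5 and leidenalg 0.10.2 (1843 variable genes, 30 components, 15 neighbours, resolution 0.8) without batch correction.

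The members, gene lists and rules were chosen with earlier results of these data known. Named genes were, by rule, the 12 each way with the largest smaller ratio of the 2 captures, the 10 each way by treatment ratio in members, the 5 each way by difference from the others and by reporter, and up to 4 of each function list; these ranks left out sex-linked, haemoglobin, T cell receptor, immunoglobulin, ribosomal and mitochondrial genes. Other genes of a list were named after their values were seen. The differences between treatment ratios have normal intervals on the log scale. Alternatives covered the threshold, the number of genes, mitochondrial share, thinning, the criteria without Cxcl10, hashtag doublets, Fscn1, hashtag assignment, TMM scaling (edgeR 4.0.16), means over barcodes, the CPM minimum and the fold. Motif and promoter sequences are from RefSeq, GRCm38.p6. Values of 2 genes are not reported here.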

Additional observations from a re-analysis of the deposited data

Results flagged for a closer look

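Ets2 and Hspa1a differed between BFP+ and BFP- members in opposite directions in the captures, with intervals on opposite sides of 0, and the difference between captures was not tested. Ets2 was at 106 CPM in BFP+ members against 94.3 in BFP- members after MC903, a log2 ratio of 0.17 (0.01 to 0.32), and at 71.2 against 130.3 untreated, a ratio of -0.87 (-1.22 to -0.53). With the dominant hashtag the ratios were 0.27 and -0.47. Hspa1a was at 194 against 167 CPM after MC903 (0.22, 0.11 to 0.33) and at 289 against 390.1 untreated (-0.43, -0.61 to -0.25). With the dominant hashtag both Hspa1a ratios were negative, at -0.10 (-0.21 to 0.01) and -1.57 (-1.85 to -1.29). The part of the hashtag assignment and of depth in these values was not tested.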

How the results depend on the processing

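No paired analysis was possible because each population is 1 pool and no replicate was made. The share of members was 31.1% after MC903 and 16.2% untreated at 6 UMIs per 10000, 29.3% and 7.07% with at least 3 genes, 21.9% and 13.1% after thinning, and 36.9% and 17.2% without Cxcl10. The log2 ratio of shares was 2.05 with at least 3 genes and 0.74 after thinning, and between 0.93 and 1.10 under the other 5 settings that were run for it. The BFP+ share among members was 32.9% after MC903 and 16.7% untreated by the dominant hashtag, and 65.4% untreated with at least 3 genes. The smallest ratio of a left-out gene was 0.86 without Cxcl10.

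Genes higher in members in both captures numbered 21 with the mean of barcodes, 257 with no minimum CPM, 43 at 50 CPM and 8 at 2-fold, and lower ones 25 at 6 UMIs per 10000, 29 with at least 3 genes, 5 with the mean of barcodes, 354 with no minimum CPM, 6 at 50 CPM and 0 at 2-fold. Genes higher in MC903 than in untreated members numbered 457 after thinning, 289 with TMM scaling, 791 with no minimum CPM, 97 at 50 CPM and 41 at 2-fold, and lower ones 349, not moved by TMM beyond 1.5 times (121), 1939, 74 and 69. Genes apart between BFP+ and BFP- members numbered 587 after thinning, 1776 with no minimum CPM, 43 at 50 CPM and 27 at 2-fold after MC903, and untreated 2697, 218 and 131 under the last 3. In clusterings at resolutions 0.4 and 1.2, added after the data were seen, the 3 clusters with most members held 78.7% and 60.5% of MC903 members and 76.05% and 47.6% of untreated ones (63.4% in both captures at 0.8). The same clusters held 72.6% and 43.9% of all eligible MC903 barcodes and 70.7% and 45.3% of eligible untreated ones.

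Of 1056 values of named genes under these settings, 926 stayed inside the interval of the reported value, 129 left it with the same sign and 1 changed sign: Pygl in untreated members against the others, at 0.34 after thinning. The causes were not tested. The CPM minimum and the fold decide which genes are counted and leave each ratio as it was. Values under those settings are therefore among the 926 by construction. So are the BFP+ against BFP- values with hashtag doublets left out, since only singlets entered them. The count of 926 is thus no measure of stability over all settings. Depth limits the untreated capture, where a member just inside the threshold rests on 2 UMIs of the 6 genes, and free RNA cannot be measured without empty droplets, which were not used here.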

Other observations

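Haemoglobin and mast cell transcripts stood high in untreated members because of single barcodes. Of 728 Hbb-bs UMIs in untreated members, 702 came from 1 barcode, and of 120 Mcpt4 UMIs 104 did. In MC903 members Hbb-bs had 7 UMIs in 7 barcodes and Mcpt4 had 3. S100a9 had 469 UMIs in 15 untreated members, 331 of them in 1 barcode. Cluster 17, led by salivary genes such as Bglap3, Chia1 and Bpifa2, held 66 MC903 members among 152 eligible barcodes (43.4%, 35.4 to 51.7) and 0 of 3 untreated ones. The MC903 share is near the 39.8% over all eligible MC903 barcodes. The cluster held 3.98% of MC903 members and 3.43% of the MC903 others.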
